A study of Homo sapiens with 15 samples.

Results

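The places bound by GATA2 and by RUNX1 were compared within TF-1 cells that carried wild-type (WT) RAD21. TF-1 is a human erythroleukemia cell line, and these cells were transduced with an inducible vector for WT RAD21 and treated with doxycycline (DOX) for 6 days. GATA2 and RUNX1 were each measured by chromatin immunoprecipitation sequencing (ChIP-seq) in 2 libraries by the labels, and the peaks of each target come as 1 list pooled over its libraries. The members are all peaks of the WT GATA2 and WT RUNX1 lists on the autosomes, 1 to 22. They number 47462 of the 198298 peaks of all 6 lists of the series. A GATA2 and a RUNX1 peak that share at least 1 bp form a joint site, and the other peaks are called GATA2-only or RUNX1-only. The other lists used are SMC3 in the same line and GATA2 and RUNX1 in TF-1 cells transduced with RAD21 Q592*, whose asterisk marks a stop codon, and induced in the same way. The labels do not say whether a line is a single clone, and the vector adds RAD21 to cells whose own RAD21 is not described.

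GATA2 is a zinc-finger transcription factor that binds GATA motifs and is required for blood stem and progenitor cells. RUNX1 binds DNA together with its partner CBFB and is required for the first blood stem cells in the embryo, and mutations of either gene are found in myeloid disease. In progenitor cells the pair shares many enhancers, often together with TAL1, LMO2 and ETS factors such as ERG and FLI1. Cohesin, which forms loops of chromatin, is a protein ring, and RAD21 and SMC3 both belong to it. Coordinates below are those of hg19. Gene annotation and sequence of that build were not used here, so places are given by position alone.

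GATA2 was called at many more places than RUNX1, and most RUNX1 places lay on a GATA2 peak. The autosomes held 38063 GATA2 peaks covering 11.4 Mb and 9399 RUNX1 peaks covering 2.31 Mb. By the depth recovered from the peak values, the pools were of similar size, at 108 M ChIP reads for GATA2 and 105 M for RUNX1 (M stands for 1000000 reads). A median peak rested on 47 ChIP reads at its summit for GATA2 and on 49 for RUNX1. Of the RUNX1 peaks 7040 overlapped a GATA2 peak, which is 74.9% (95% Wilson interval 74.0 to 75.8%). Of the GATA2 peaks 6960 overlapped a RUNX1 peak, which is 18.3% (17.9 to 18.7%). Joined, the lists gave 6955 joint regions, 31103 GATA2-only regions and 2359 RUNX1-only regions. With 1 pooled list per target there is no spread between libraries, so no test between groups could be made, and every interval covers counting error only.

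A joint site was nearly always 1 peak of each factor, and in most cases the RUNX1 peak was nested in a wider GATA2 peak. Of the 6955 joint regions 6866 held 1 peak of each kind, 83 held 1 GATA2 and 2 RUNX1 peaks, and 5 held 2 GATA2 peaks and 1 RUNX1 peak. The RUNX1 peak lay wholly inside the GATA2 peak in 4490 of 7040 cases (63.8%). Its summit lay inside the GATA2 peak in 96.8% of cases, and the GATA2 summit lay inside the RUNX1 peak in 89.3%. The shared stretch had a median of 215 bp, and few joint calls rested on a short overlap. A stricter rule still lowered the share, to 49.1% of RUNX1 peaks with a reciprocal overlap of 50%. An overlap of at most 50 bp was found for 51 joint RUNX1 peaks, with a median −log10 q of 5.34 and a median summit distance of 202 bp. Just outside the 1 bp rule, 26 RUNX1-only peaks had the edge of a GATA2 peak within 50 bp. Their median −log10 q was 7.88 and their median summit distance 272.5 bp.

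Joint sites were the stronger sites of both lists, and far more so for GATA2. Strength is given by the authors' −log10 q, which serves to rank peaks within a list, and by their fold enrichment over the local background. GATA2 peaks at joint sites had a median −log10 q of 35.6 (quartiles 15.9 and 76.4) and a median fold of 6.96. GATA2-only peaks had 10.7 (6.52 and 19.8) and a fold of 4.23. RUNX1 peaks at joint sites had a median −log10 q of 11.99 (7.04 and 22.6) and a fold of 4.60, compared with 9.0 (5.71 and 14.7) and 3.93 for RUNX1-only peaks. The middle ranges of joint and RUNX1-only peaks thus overlapped widely, while those of joint and GATA2-only peaks overlapped only between 15.9 and 19.8.

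The share of joint peaks followed strength much more steeply for GATA2 than for RUNX1. Among GATA2 peaks it was 5.04% (4.39 to 5.78%) in the weakest decile and 60.8% (59.3 to 62.4%) in the strongest. Among RUNX1 peaks it was already 65.5% (62.4 to 68.5%) in the weakest decile and reached 89.7% (87.6 to 91.5%) in the strongest. Nearly all of the strongest peaks lay on some peak of the full other list: 96 of the 100 strongest RUNX1 peaks lay on a GATA2 peak, and 95 of the 100 strongest GATA2 peaks lay on a RUNX1 peak. The partner was seldom as highly ranked: 12 of these 100 RUNX1 peaks met one of the 100 strongest GATA2 peaks. The share seen from RUNX1 depended on the length of the GATA2 list. When that list was trimmed to the 9399 strongest peaks, 44.5% of the RUNX1 and 43.8% of the GATA2 peaks were joint, and with a reciprocal overlap of 50% the full lists gave 49.1% and 12.1%.

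**Figure D1:**
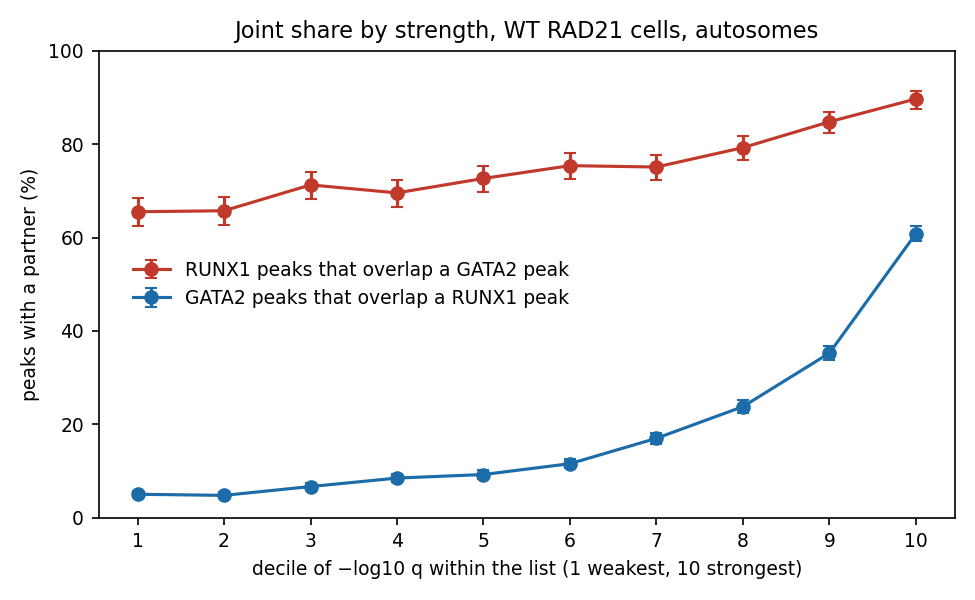
Percentage of peaks with a partner (vertical axis) in each decile of −log10 q within the list (horizontal axis), for RUNX1 peaks that overlap a GATA2 peak (red) and GATA2 peaks that overlap a RUNX1 peak (blue); bars are 95% Wilson intervals. The red points run from 65.5% to 89.7% and the blue points from 5.04% to 60.8%, with the steepest climb in the last 3 blue deciles.

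The joint regions that ranked highest in both lists were spread over 5 chromosomes. The leading region lay on chromosome 13 from 91795529 to 91796924, with rank 3 for GATA2 (fold 26.6, 728 reads at the summit) and rank 5 for RUNX1 (fold 14.8, 367 reads), and its summits were 6 bp apart. It lies in the segment from 75 to 100 Mb described below, and its local background was 4.39 times the genome-wide value in both lists. The leading region was followed by chromosome 6 from 135643948 to 135644933, with ranks 7 and 14, folds of 30.4 and 15.0, and summits 10 bp apart. On chromosome 10 from 9849657 to 9850566 the ranks were 2 and 15, and the folds of 69.6 and 24.1 were the highest of these 5 for both factors. The remaining pair lay on chromosome 3 from 182655192 to 182655890 (ranks 24 and 38) and on chromosome 1 from 160509633 to 160510818 (ranks 40 and 22). All 5 measured between 699 and 1396 bp, overlapped an SMC3 peak in WT and carried both factors in Q592*. In the strongest decile of either list SMC3 was at 79.5% (RUNX1) and 81.3% (GATA2) of the joint peaks, and 100% had the same factor in Q592*. The ranking that picked them makes their strength no finding.

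Strong GATA2 sites without a RUNX1 call existed too. The strongest was on chromosome 20 from 37576369 to 37577018, with rank 33, a fold of 30.2 and the nearest RUNX1 summit 142953 bp away. Next came chromosome 2 from 122756702 to 122757357, with a fold of 23.4. Chromosome 6 held a pair, from 159183675 to 159184301 with a fold of 18.3 and from 71047040 to 71047604 with 29.1. The last, with a fold of 21.0, was at 102118695 to 102119304 of chromosome 10. Their nearest RUNX1 summits lay 25329 to 276514 bp away. All 5 overlapped an SMC3 peak in WT, compared with 56.7% of the GATA2-only peaks in the strongest decile. RUNX1 was called at all 5 in Q592*, with folds of 2.20 to 4.08. Over all GATA2-only regions, the others of which were weaker, it was called at 11.2%. The share at like GATA2 strength was not computed.

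The strongest RUNX1-only sites ranked lower in their list than the strongest joint ones. The leading site, on chromosome 8, had rank 64, a fold of 13.03 and a GATA2 summit 6392 bp away. On chromosome 15 there were sites from 75445913 to 75446259 (fold 8.56, GATA2 at 7556 bp) and from 70784657 to 70784933 (fold 7.34, GATA2 at 2636 bp). A further site on chromosome 8 had a fold of 6.29 and one on chromosome 1 from 205180750 to 205180995 a fold of 6.16. They measured 246 to 377 bp. In WT 2 of the 5 overlapped an SMC3 peak, compared with 41.2% of the RUNX1-only peaks in the strongest decile. RUNX1 was called at all 5 in Q592*, as at 100% of the RUNX1-only peaks in the strongest decile. GATA2 was called there at 1 of the 5, the site at 70784657, compared with 29.5% of all RUNX1-only regions. The local background at these sites, recovered from the peak values, was 2.40 to 8.06 times the genome-wide one.

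The summits of the factors lay close together at joint sites, but not as close as those of the same factor in both lines. The median distance from the RUNX1 to the nearest GATA2 summit was 37 bp (interval of the median 36 to 38 bp, quartiles 16 and 73 bp, 7040 pairs). It was at most 25 bp in 36.9% of the pairs, at most 50 bp in 61.6% and at most 100 bp in 84.3%. Between the lines, RUNX1 summits of WT lay a median of 20 bp (19 to 20 bp, 7786 pairs) from the RUNX1 summits of Q592*. GATA2 summits lay 20 bp (20 to 20 bp, 33070 pairs) from theirs. Restricted to the joint sites these same-factor distances were 20 and 16 bp. The distance to cohesin was larger, with a median of 54 bp (51 to 56 bp) from RUNX1 to SMC3 and 59 bp (58 to 61 bp) from SMC3 to GATA2. Peaks must overlap to be paired, so their width bounds all of these distances.

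**Figure D2:**
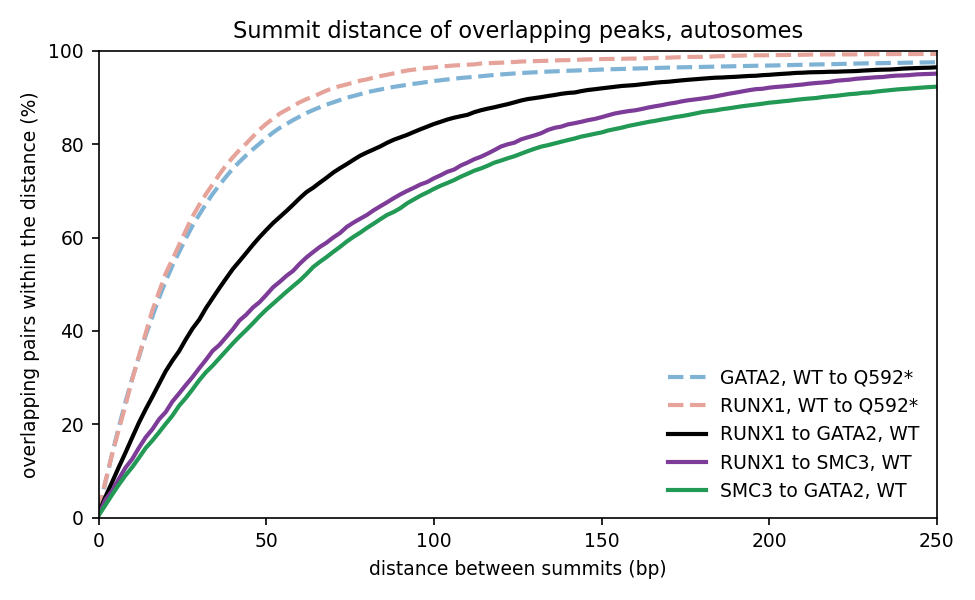
Cumulative percentage of overlapping peak pairs (vertical axis) whose summits lie within a given distance in bp (horizontal axis), for RUNX1 to GATA2 in WT (black), each of them to SMC3 in WT (purple, green), and the same factor between WT and Q592* (dashed). At 50 bp the black curve is at 61.6%, between the dashed curves at 84.4% and 81.3% and the SMC3 curves at 47.7% and 44.6%.

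Summits lay closer together at stronger sites, both between the factors and between the lines. From the weakest to the strongest quartile of RUNX1 strength, the GATA2 to RUNX1 distance went from a median of 50 to 31 bp. Over the same quartiles the RUNX1 summits of both lines went from 33.5 to 14 bp apart. Over quartiles of GATA2 strength the distance between the factors was 42, 36, 36 and 35 bp, while the GATA2 summits of both lines were 28, 18, 15 and 12 bp apart. In the strongest GATA2 quartile 64.3% of RUNX1 summits lay within 50 bp of the GATA2 summit, compared with 96.0% for GATA2 against itself. The values between lines rest only on sites called in both, 1150 of 1760 in the weakest RUNX1 quartile and 1752 in the strongest, and the difference between these trends was not tested. A minority of pairs lay far apart. In 363 of 7040 pairs (5.16%) the summits were more than 200 bp apart, and the GATA2 peaks of these pairs had a median width of 642 bp, compared with 390 bp over all pairs.

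Strength agreed only weakly between the factors at the sites they shared. Over the 7040 pairs Spearman's rank correlation of −log10 q was 0.26, and that of the fold was 0.33. The pairs share the ChIP pools and the cells, and which of the 2 WT inputs entered each list is not known, so these values are a description and carry no p. For comparison, the rank correlation between the lines at joint sites was 0.76 for RUNX1 (6075 pairs) and 0.91 for GATA2 (6660 pairs). These values between lines rest only on joint peaks called again in Q592*, so the sets of sites differ. Of the RUNX1 peaks in the strongest quartile of joint sites, 40% had a GATA2 partner in the strongest GATA2 quartile and 13.1% one in the weakest, where equal spread gives 25%. From the weakest RUNX1 quartile 16.1% fell in the strongest GATA2 quartile and 33.0% in the weakest. Although 96 of the top 100 RUNX1 peaks were joint, only 12 of them met a GATA2 peak of the top 100, and of the 1002 RUNX1 peaks that rank in the top 1000, ties included, 259 met a GATA2 peak of the top 1000.

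The rank correlation of the recovered local background was 0.92 over the 7040 pairs, where both lists may rest on the same input libraries, and that of the ChIP reads at the summit was 0.47. Among the 3909 pairs with a local background under 2 times the genome-wide one in both lists, the rank correlation of −log10 q was again 0.26, while that of the fold was 0.25, lower than over all pairs. Requiring summits within 50 bp left it at 0.26 (4338 pairs), and with summits over 100 bp apart it was 0.20 (1104 pairs). With a reciprocal overlap of 50%, which pairs peaks of like width, the rank correlation was 0.43, and the cause was not tested.

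**Figure D3:**
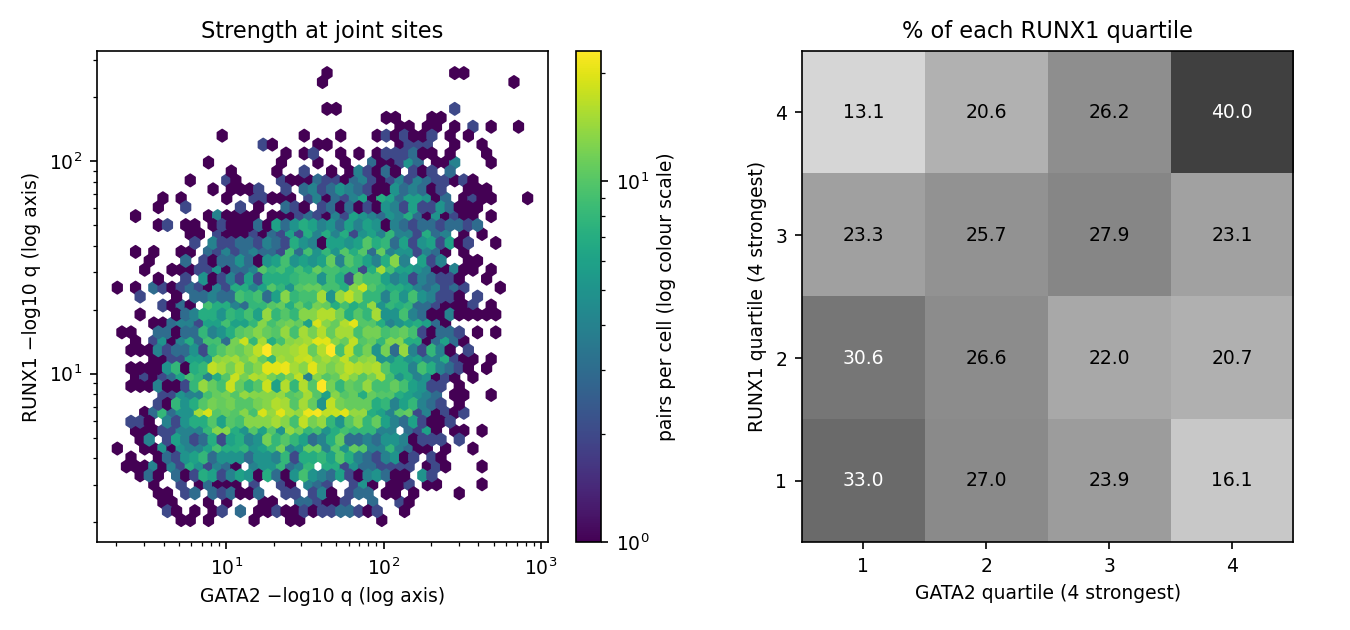
Left, −log10 q of GATA2 (horizontal log axis) and RUNX1 (vertical log axis) at the 7040 joint pairs, coloured by pairs per cell on a log scale. Right, percentage of each RUNX1 quartile of joint pairs (rows) that falls in each GATA2 quartile (columns), where 25% is an equal spread; the strongest with strongest cell holds 40% and the strongest RUNX1 with weakest GATA2 cell 13.1%.

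Single sites show how far the ranks could part. On chromosome 13 from 75493972 to 75494855 GATA2 had rank 83 (fold 31.5, 312 reads) and RUNX1 rank 9236 (fold 2.87, 30 reads). The same held on chromosome 1 from 164681338 to 164682019 (ranks 22 and 9203) and from 39380942 to 39381461 (ranks 324 and 9213). In the other direction, chromosome 6 from 55911369 to 55911725 had RUNX1 at rank 294 (fold 7.98) and GATA2 at rank 36112 (fold 2.40), with summits 10 bp apart. Chromosome 6 from 28304214 to 28304763 had ranks 332 and 36556. Chromosome 21 from 40356933 to 40357275 had RUNX1 at rank 444 and GATA2 at rank 37631, in a place with a local background 12.99 (RUNX1) and 11.1 (GATA2) times the genome-wide value. All 6 carried both factors in Q592*, compared with 85.7% of all joint regions.

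How far RUNX1 sites without a GATA2 call lay from GATA2 depended on the length of the lists and on the rule for joint sites. The median distance from a RUNX1-only summit to the nearest GATA2 summit was 9620 bp (quartiles 2673.5 and 27765.5 bp, 2359 sites), and 51.2% (49.1 to 53.2%) had one within 10 kb. For joint RUNX1 peaks the next GATA2 summit, leaving out the partner, was at 6467.5 bp, with 60.7% (59.6 to 61.8%) within 10 kb. Within 1 kb the shares were 12.1% (10.8 to 13.5%) and 13.3% (12.5 to 14.1%), with overlapping intervals. GATA2-only summits had the nearest RUNX1 summit at a median of 44564 bp and 21.1% (20.6 to 21.6%) within 10 kb. Joint GATA2 peaks had the next at 35146 bp and 25.4% (24.4 to 26.4%) within 10 kb. The longer GATA2 list by itself makes distances to GATA2 shorter than distances to RUNX1, so only the values towards the same factor can be set against each other. These distances moved with the lists: with a −log10 q of at least 10 in both, the medians for single sites were 18866 bp from RUNX1 and 91442 bp from GATA2. With the GATA2 list trimmed to equal length they were 43552 and 46251 bp. Where joint sites needed a reciprocal overlap of 50% or summits within 100 bp, the RUNX1-only median was 369 or 2933 bp.

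Around joint RUNX1 summits the density of GATA2 summits was 57.4 per kb and 100 RUNX1 sites in the first kb on either side, which holds the partner itself. It was 9.01 from 1 to 2 kb, 5.69 from 5 to 10 kb and 3.97 from 20 to 50 kb. Around RUNX1-only summits it was 6.70 in the first kb, where overlapping peaks are absent by the rule, then 6.40 from 1 to 2 kb, 4.52 from 5 to 10 kb and 3.65 from 20 to 50 kb. Both kinds of RUNX1 site thus had more GATA2 summits within 2 kb than at 20 to 50 kb. Weak RUNX1-only peaks lay nearer to GATA2 than strong ones, with a median of 5859 bp in the weakest quartile and 13057 bp in the strongest.

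**Figure D4:**
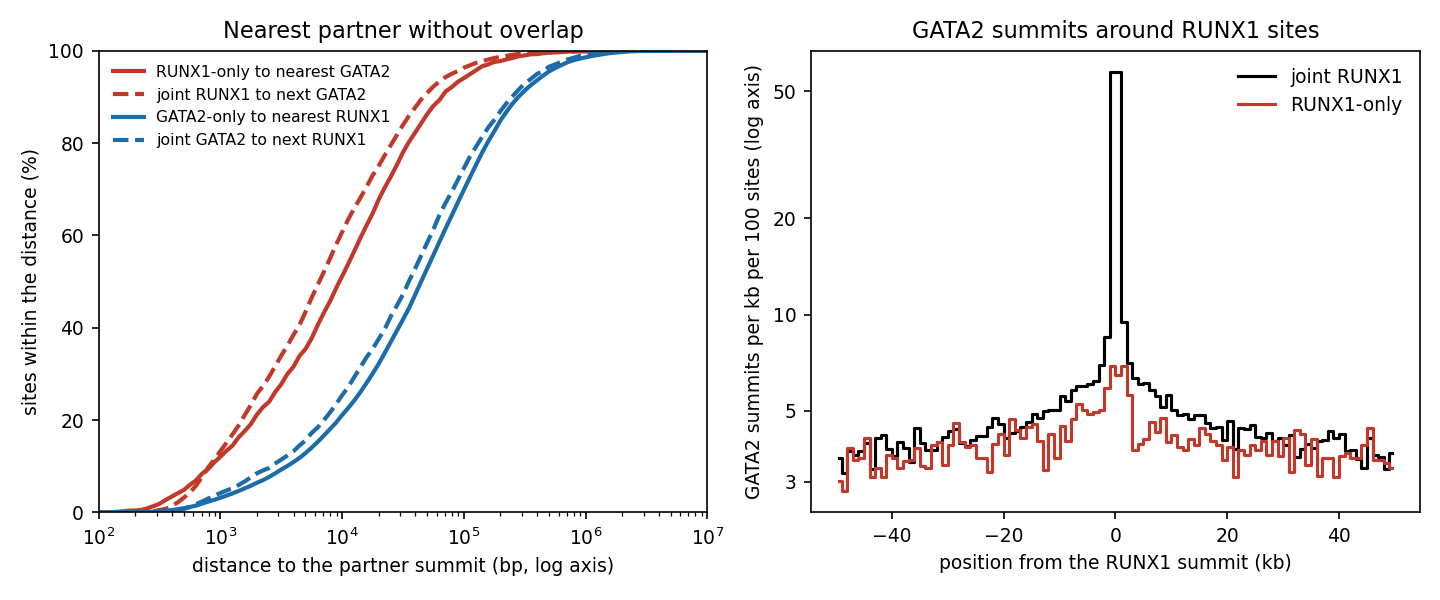
Left, cumulative percentage of sites (vertical axis) with a summit of the other factor within a given distance (bp, log axis), leaving out overlapping partners; solid lines are single sites, dashed lines joint ones, red RUNX1 and blue GATA2. Right, GATA2 summits per kb and 100 RUNX1 sites (log axis) by position from the RUNX1 summit in kb; the density falls from 57.4 (joint) and 6.70 (RUNX1-only) in the first kb to 3.97 and 3.65 at 20 to 50 kb.

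The joint share was similar on most autosomes. For RUNX1 peaks it ran from 63.8% (chromosome 13) to 80.2% (chromosome 5) with a median of 74.8% over the 22 chromosomes, and for GATA2 peaks from 15.7% (chromosome 13) to 25.5% (chromosome 16) with a median of 18.6%. Chromosome 19 was also low for RUNX1, at 64.8% (57.5 to 71.4%) of 176 peaks. Of the 155 joint regions of chromosome 16, 43 lay in the 100 kb from 46386372 to 46486371. That block held 49 of the 608 GATA2 and 44 of the 216 RUNX1 peaks of the chromosome. Its median local background was 13.6 (GATA2) and 10.6 (RUNX1) times the genome-wide value. The part of the block in the share of chromosome 16 was not tested. Within chromosome 13 the segment from 75 to 100 Mb, a place chosen with earlier results known, was lower than the rest. There 182 of 317 RUNX1 peaks were joint (57.4%, 51.9 to 62.7%), while the rest of the chromosome had 74.6% (68.0 to 80.3%) and the other autosomes 75.5%. The median local background at RUNX1 peaks was 1.84 times the genome-wide value in the segment. It was 1.34 times on the rest of chromosome 13 and 1.79 times on the other autosomes. The part of the background in the low share was not tested. Of the RUNX1 peaks in the segment 40.4% (35.1 to 45.9%) had a RUNX1 peak in Q592*, compared with 89.9% (84.8 to 93.5%) on the rest of the chromosome.

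Of 6955 joint regions 49.0% shared a 100 kb bin with at least 1 other, and 4.13% lay in the 43 bins with 5 or more. The densest 100 kb, on chromosome 16 from 46386372 to 46486371, held 43 joint regions among 49 GATA2 and 44 RUNX1 peaks, and also 43 SMC3 peaks. The local background there had a median of 13.6 (GATA2) and 10.6 (RUNX1) times the genome-wide value. The next was on chromosome 4 from 49094918 to 49194917, with 18 joint regions, 22 SMC3 peaks and a background of 2.46 times in both lists. Chromosome 10 from 42357055 to 42457054 followed, with 15 joint regions, 14 SMC3 peaks and backgrounds of 16.9 and 15.8 times. A local background above 3 times the genome-wide value was found at 18.0% of the joint RUNX1 peaks, 26.2% of the RUNX1-only, 18.4% of the joint GATA2 and 11.4% of the GATA2-only peaks. Without these peaks the joint share was 74.4% of RUNX1 and 16.6% of GATA2 peaks.

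Cohesin was called at joint sites far more often than at sites of either factor alone. SMC3 overlapped 4091 of 6955 joint regions in WT (58.8%, 57.7 to 59.97%), compared with 19.2% (18.8 to 19.7%) of GATA2-only and 22.98% (21.3 to 24.7%) of RUNX1-only regions. Over all 40417 regions the share was 26.3%. Joint sites were also the stronger and wider ones, so the shares were set against each other within quartiles of strength. Among RUNX1 peaks SMC3 was at 51.8% of joint and 17.7% of RUNX1-only peaks in the weakest quartile, and at 69.2% and 39.4% in the strongest. Among GATA2 peaks the values were 31.5% of joint and 10.5% of GATA2-only peaks in the weakest quartile, and 71.0% and 42.1% in the strongest. The intervals of joint and single peaks did not overlap in any quartile of either list. Joint peaks were wider, at a median of 234 bp for RUNX1 (RUNX1-only 185 bp) and 387 bp for GATA2 (GATA2-only 238 bp), and the part of width in the overlap with SMC3 was not tested. Limited to peaks of −log10 q 10 or more in each list, SMC3 included, the shares were 30% (joint), 10.2% (GATA2-only) and 13.8% (RUNX1-only). With the GATA2 list trimmed to the length of the RUNX1 list they were 71.3%, 42.3% and 32.3%, so GATA2-only then lay above RUNX1-only.

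Seen from cohesin, RUNX1 peaks with SMC3 were joint in 88.3% (87.3 to 89.2%) of cases and those without in 62.0% (60.6 to 63.4%). For GATA2 peaks the values were 40.6% (39.6 to 41.5%) and 10.3% (9.94 to 10.6%). Both shares were thus lower without an SMC3 call, although most RUNX1 peaks there still lay on a GATA2 peak. At joint sites without SMC3 the summits were 36 bp apart, compared with 38 bp where SMC3 was present. At the 4076 RUNX1 peaks that carried both others, RUNX1 lay nearer to GATA2 (median 38 bp) than to SMC3 (55 bp), and GATA2 and SMC3 were 57 bp apart. The rank correlation of −log10 q at these places was 0.24 for RUNX1 with GATA2, 0.13 for RUNX1 with SMC3 and 0.26 for GATA2 with SMC3. Places called under every antibody were not filtered out. In the full lists RUNX1 overlapped GATA2 (74.9%) more than SMC3 (49.1%, 48.1 to 50.1%), although the SMC3 list is longer, with 41215 peaks.

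**Figure D5:**
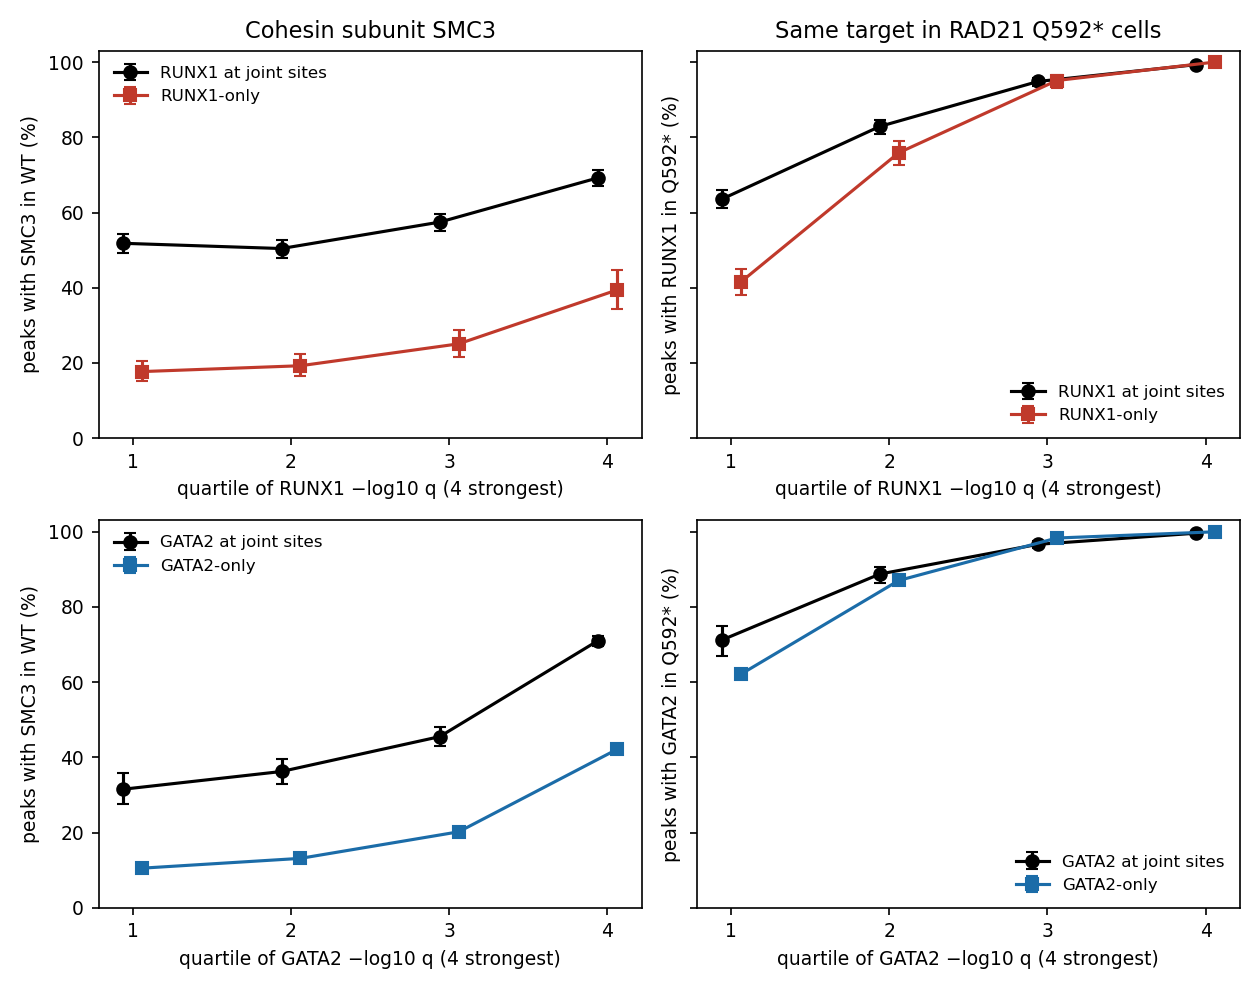
Percentage of peaks (vertical axes) that overlap SMC3 in WT (left) or a peak of the same factor in Q592* (right), by quartile of −log10 q within the WT list (horizontal axes), for RUNX1 (top) and GATA2 (bottom); black circles are joint, coloured squares single sites, bars 95% Wilson intervals. SMC3 is higher at joint sites in every quartile, while in Q592* the classes differ in the weakest quartile (63.5% and 41.5% for RUNX1) and meet in the strongest (99.3% and 100%).

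Most WT sites of every class were called again in cells with RAD21 Q592*, whose GATA2 and RUNX1 lists are longer. Of the joint regions 95.7% carried GATA2 in Q592*, 86.7% RUNX1 and 85.7% (84.9 to 86.5%) both. Over all regions these shares were 83.5%, 27.8% and 24.8%. GATA2 was kept at 84.9% (84.5 to 85.3%) of GATA2-only regions and RUNX1 at 72.5% (70.7 to 74.3%) of RUNX1-only regions. The partner without a call in WT was called in Q592* at a minority: RUNX1 at 11.2% (10.9 to 11.6%) of the GATA2-only regions and GATA2 at 29.5% (27.7 to 31.3%) of the RUNX1-only regions.

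Within quartiles of strength, joint peaks were kept more often than single ones in the weakest quartile of both lists. In the upper quartiles nearly all peaks of both classes were kept, which leaves little room for a difference. In the weakest RUNX1 quartile 63.5% (61.1 to 65.9%) of joint and 41.5% (38.1 to 44.96%) of RUNX1-only peaks had a RUNX1 peak in Q592*. In the next quartile the values were 82.9% and 75.9%, then 94.8% and 95.1%, and in the strongest 99.3% and 100%. For GATA2 the weakest quartile gave 71.2% (67.0 to 75.03%) at joint and 62.1% (61.0 to 63.0%) at GATA2-only peaks, and the next 88.7% and 87.0% with overlapping intervals. By decile the GATA2 values were 67.2% and 52.7% in the weakest, while the intervals overlapped in deciles 2 and 3. The part of the greater width of joint peaks was not tested. Nor was that of the chromosome 13 segment, where 40.4% of RUNX1 peaks were kept. In the upper GATA2 quartiles the single peaks were slightly higher, at 98.3% compared with 96.6% and at 99.96% compared with 99.6%. Within Q592* the pair gave values close to those of WT, with 74.9% (74.2 to 75.6%) of RUNX1 peaks on a GATA2 peak, a median summit distance of 34 bp (33 to 34 bp) and a rank correlation of 0.29. The lines could not be tested against each other, and the labels give 1 RUNX1 library for Q592*.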

How the data were processed

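The deposited peak lists come from Bowtie2, Picard and MACS2 on hg19, per the submitters' processing notes, whose versions are not stated there. Each list was taken as 1 call over pooled libraries, since its peaks are named as a merge. Per the labels, cells were crosslinked for 10 minutes in 1% formaldehyde and the chromatin fragments measured 200 to 400 bp. The deposited fold is the ratio of ChIP pileup to local background at the summit, and the deposited −log10 p and −log10 q belong to the same summit. The deposited score, a truncated multiple of the −log10 q, was not used. No peak had a −log10 q under 2.01 (GATA2) or 2.05 (RUNX1), so weaker binding cannot be seen.

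The summit is the peak start plus the deposited offset. Peaks joined by at least 1 bp formed regions. A RUNX1 peak with several partners was paired with the nearest summit. Intervals of shares are Wilson intervals, and those of medians come from binomial order statistics. Depth and local background were recovered from fold and −log10 p as whole ChIP reads, which accounted for 100% of the peaks of both lists within 0.002 of −log10 p, against at most 1.75% with the worth of a read wrong by 3%. The totals assume an effective genome of 2700000000 bp and fragments as long as the narrowest peak (150 and 139 bp). The background pools were 95.3 and 86.7 M reads.

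Regions named are the 5 joint regions with the best worse rank, the 5 strongest single regions of each factor, the 3 joint regions with the largest rank gap each way and the 3 densest 100 kb; coordinates of 2 are left out. Motifs and genes were not analysed here. The members and rules were chosen with earlier results of these data known. The functions were tested on simulated data. Tools were matplotlib 3.10.9, scipy 1.17.1, pandas 2.3.3 and numpy 2.4.6 in Python 3.11.15.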

Additional observations from a re-analysis of the deposited data

How the results depend on the processing

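No paired analysis was possible because each list is a pool without replicate numbers, and for the same reason no library could be left out. Of 134 alternative values 52 stayed within the interval of the reported value, or within 1.5 times a reported count, and no rank agreement changed sign. With chromosomes X and Y included all 15 did. The limit on local background was chosen after the data were seen. In the values below, kept in Q592* means both factors called at joint sites, but only the own factor at single sites. The kept shares of joint and single sites are therefore not like measures. Weak sites and sites under the lists' thresholds limit every count, and the cause of the changes was not tested except where fewer peaks enter by construction.

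A −log10 q of at least 10, applied to the SMC3 and Q592* lists too, gave joint shares of 71.8% (RUNX1) and 16.6% (GATA2), with 3753 joint, 18851 GATA2-only and 1481 RUNX1-only regions. The summit distance was 32 bp, nearest partners were at 18866 (RUNX1-only) and 91442 bp (GATA2-only), SMC3 was at 30.003% (joint), 10.2% (GATA2-only) and 13.8% (RUNX1-only), and 90.8%, 93.2% and 86.5% were kept in Q592*. A fold of at least 4 gave 71.1% and 17.5%, 4049 joint and 19157 GATA2-only regions, 34 bp, a rank correlation of 0.35, partners at 17718 and 80945 bp, SMC3 at 37.4%, 13.7% and 15.3%, and 81.3% (joint) and 86.9% (GATA2-only) kept. Equal list lengths, with GATA2 trimmed to its strongest peaks, gave 44.5% and 43.8%, 4114, 5285 and 5214 regions, a rank correlation of 0.19, partners at 43552 and 46251 bp, SMC3 at 71.3%, 42.3% and 32.3%, and 92.5%, 99.96% and 75.5% kept.

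A reciprocal overlap of 50% gave 49.1% and 12.1%, 4613 joint and 4786 RUNX1-only regions, 33 bp and a rank correlation of 0.43. Partners were at 369 and 38385 bp, SMC3 at 56.2%, 22.3% and 42.5%, and 88.1%, 85.7% and 76.6% were kept. Summits within 100 bp gave 63.2% and 15.6%, 30 bp, partners at 2933 and 41855 bp, SMC3 at 20.5% (GATA2-only) and 34.4% (RUNX1-only), and 87.0% of joint sites kept. Without SMC3 places the values were 60.1% and 10.2%, 2864 joint regions, 35 bp, a rank correlation of 0.22, partners at 13359 and 107498 bp, and 83.3% (joint) and 83.2% (GATA2-only) kept.

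Without chromosome 13 the GATA2-only distance was 45726.5 bp, and 86.0% of GATA2-only and 75.6% of RUNX1-only sites were kept. With a local background of at most 3 times genome-wide, 16.6% of GATA2 peaks were joint, the GATA2-only distance was 53260 bp, SMC3 was at 26.3% of RUNX1-only sites, and 84.6%, 83.7% and 67.0% were kept. Ranking by fold gave a rank correlation of 0.33.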
